A study of Mus musculus with 4 samples.

Results

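Axoneme and intraflagellar transport genes were followed across the cell states and ages of the dorsal ventricular-subventricular zone (V-SVZ), the germinal layer along the roof of the lateral ventricle. The set held the genes whose symbols begin with Dnah, Cfap, Tekt, Rsph, Dnaaf, Drc or Ift followed by a digit and that had at least 20 UMIs over the 4 libraries. Of 77 matching symbols, 75 passed, out of 31053 genes listed. Of these, 60 are called motile-axoneme members by their symbols, although not all of their products are parts of the axoneme. A further 14 are Ift genes, and 1, Ift88os, is an RNA antisense to Ift88 with 24 UMIs that entered no comparison. Rsph6a with 4 UMIs and Dnah2os with 9 fell below the minimum, and Tekt3 with 32 was, after Ift88os, the member closest above it.

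All cells came from microdissected dorsal V-SVZ of wild-type OF1 mice at postnatal days 2 (P2), 12 (P12) and 22 (P22), profiled with 10x Genomics 3' version 3 kits, which tag RNA molecules so that copies of a molecule count once (a UMI). P12 has 2 libraries, called replicates 1 and 2, while P2 and P22 have 1 library apiece. The labels call all mice male, but the study's methods state that the P2 sample turned out to include a female. The P2 and P22 libraries each pooled 2 mice, and whether a P12 library held 1 or 2 mice is not settled by the sources. The P12 libraries came from independent experiments. With only these 2 libraries, the spread behind the p-values was taken wholly or largely from the trend over all genes.

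Cilia are built on a ring of microtubule doublets, the axoneme. Motile cilia, which ependymal cells carry in tufts to move cerebrospinal fluid, add dynein arms, radial spokes and nexin links to it, whereas neural stem cells of the V-SVZ carry a single primary cilium that lacks these parts. Intraflagellar transport (IFT) builds and maintains both kinds, with IFT-B proteins carrying cargo toward the tip and IFT-A proteins serving the return.

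The libraries held 4608 (P2), 8617 and 6400 (P12 replicates 1 and 2) and 4880 (P22) barcodes, of which 4027, 7004, 4596 and 4230 passed as cells, with median depths between 11853.5 and 14303 UMIs. Pairs of libraries shared 5 to 12 cell barcodes. Cell states were taken from clusters of the P12 cells made with 176 genes held out. These were the genes with matching symbols, the lists of other cilium genes and the pallial and subpallial lists. The cell type marker lists were not held out, except for genes such as Foxj1 that are also on a held-out list. Names were carried over to P2 and P22 by label transfer, which gave each cell its best-matching cluster with no minimum score. Since the clusters still come from other genes of the same cells, the comparisons are not independent of the clustering. Nor are the counts of enriched markers used for naming. Clusters 0, 1 and 2 had 13, 12 and 12 of 15 quiescent stem cell (qNSC) markers enriched. Only cluster 0 could be named qNSC-like. Clusters 1 and 2 had 0 qNSC markers among their 10 leading genes and 1 marker of another class each, Rgs5 (endothelial or mural) in cluster 1 and Otx2 (choroid plexus) in cluster 2. In cluster 2 the qNSC score of 0.909 was also close to the astrocyte score of 0.865. The 3 are called quiescent clusters 0 to 2 here as a working name, and comparisons with them inherit this doubt. Clusters 0 and 1 expressed the pallial genes Emx1 and Tfap2c, and cluster 2 the subpallial genes Gsx2 and Six3. The ependymal-like cluster had 13 of 13 ependymal markers enriched. It held 57 and 81 cells at P12, 18 at P2 and 12 at P22, so that its levels at P2 and P22 rest on few cells. Clusters 4, 8 and 9 could not be named and belong to none of the states compared. They held 828 and 667 cells in P12 replicates 1 and 2, 351 at P2 and 199 at P22. Cluster 4 scored highest for the qNSC list but had only 6 of its 15 markers enriched.

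The motile members and the Ift members behaved differently across cell states. Because Cfap20, Cfap36 and Cfap97 were abundant in every state, sums over the motile set leave them out, a choice made after their values were seen. The remaining 57 motile members summed to 5192 CPM (UMIs of the genes scaled to all UMIs of the class) at P2, 5523 and 6564 CPM at P12 and 7954 CPM at P22 in ependymal-like cells. In quiescent clusters 0 to 2 the sum was 483 CPM at P2, 543 and 664 CPM at P12, and 549 CPM at P22. Every ependymal-like value lay above every quiescent value, and the ratio of the 2 sums within a library was 10.7 at P2, 10.2 and 9.88 at P12 and 14.5 at P22. With all 60 motile members the sums were 6217, 6212, 7280 and 8512 CPM in ependymal-like cells and 851, 910.1, 1015 and 826 CPM in quiescent clusters at P2, P12 replicates 1 and 2 and P22, and the ratios 7.31, 6.83, 7.17 and 10.3.

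Lower motile sums were found in the activated stem cell (aNSC)-like cells, with 101, 125, 162 and 97.6 CPM in the order P2, P12 replicate 1, P12 replicate 2 and P22, and in transit-amplifying progenitor (TAP)-like cells, with 89.5, 96.3, 108 and 80.2 CPM. With all 60 members the TAP-like sums were 298, 332, 368 and 280.5 CPM. Endothelial, mural and microglia-like cells, which carry no motile cilia, summed to 32.0, 79.7, 111 and 80.8 CPM over the 57 members. These are levels in cells without motile cilia and not a measure of free RNA alone: the P2 value rests on 2 UMIs in 5 cells, and at P22 Cfap74 gave 24 of the 76 UMIs, all from microglia-like cells. At P12 the TAP-like level was below that of these cells in replicate 2 and above it in replicate 1. Within each state from ependymal-like to TAP-like, and in astrocyte-like cells (178 and 223 CPM), replicate 2 was higher than replicate 1.

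The 14 Ift members varied far less. They summed to 2294 CPM at P2, 1907 and 1849 CPM at P12 and 2068 CPM at P22 in ependymal-like cells, against 874, 847, 818 and 856 CPM in quiescent clusters 0 to 2. The ratio of these sums was 2.62 at P2, 2.25 and 2.26 at P12 and 2.42 at P22. TAP-like cells kept an Ift sum of 586, 627, 671 and 641 CPM, beside 480, 343, 337 and 285 CPM in endothelial, mural and microglia-like cells. The TAP-like value was the higher in each library, but the 480 CPM at P2 rest on 5 cells, so that the order there is uncertain. Ift transcripts were therefore present in each state examined, at levels that differed by less than those of the motile set.

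**Figure D1:**
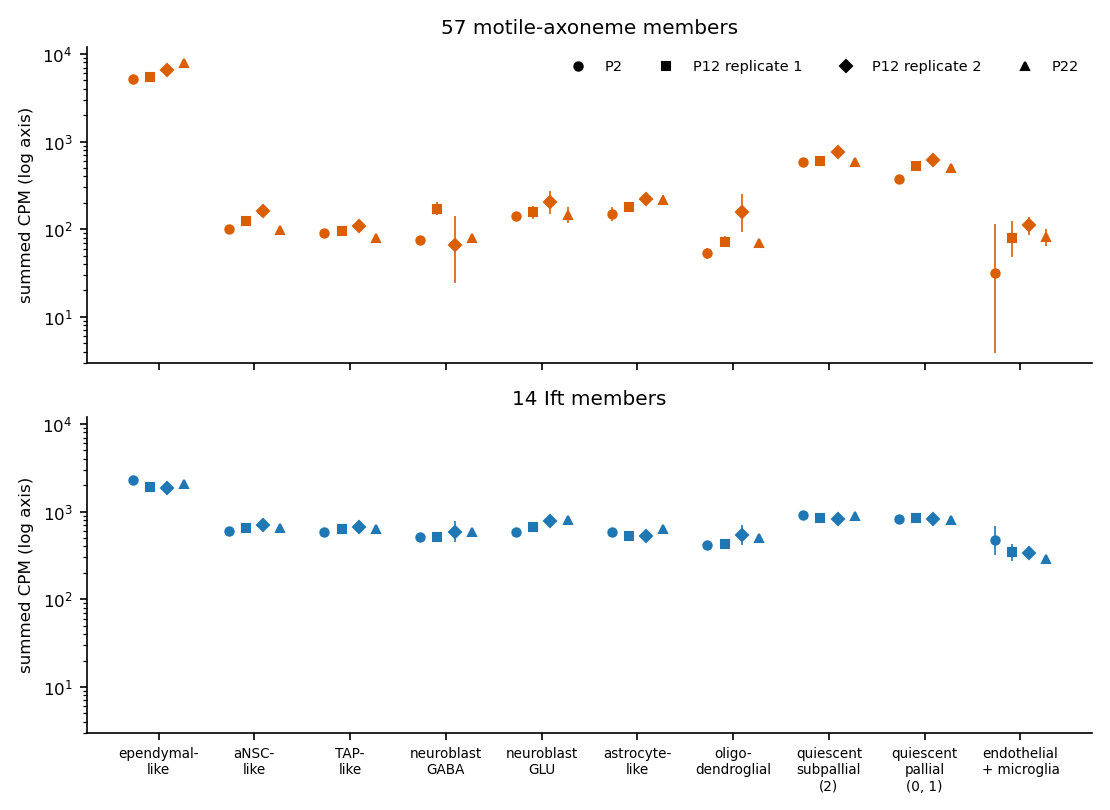
Summed level of 57 motile-axoneme members (above) and 14 Ift members (below) by cell state and library, in CPM on a log axis, with 95% counting intervals as bars. The motile sum lies between 5192 and 7954 CPM in ependymal-like cells and between 80.2 and 108 CPM in TAP-like cells, while the Ift sum lies between 1849 and 2294 CPM and between 586 and 671 CPM in the same states.

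Ependymal-like cells were next compared with quiescent clusters 0 to 2 at P12, gene by gene. This reference, which also served for aNSC-, TAP- and astrocyte-like cells, held 448 cells that became ependymal-like when cilium genes took part in the clustering. Its motile levels may therefore not be those of cells with a primary cilium alone. UMIs were summed per library and state, the CPM of each gene were scaled by edgeR's TMM factors and so differ slightly between comparisons, and the sums were tested with edgeR's quasi-likelihood test (adjusted p under 0.05, Benjamini-Hochberg over 14795 genes). Of 60 motile members 56 were higher in ependymal-like cells and 0 lower, and of 14 Ift members 13 were higher and 0 lower, against a background of 16.4% of all genes tested called higher and 15.3% called lower. The median log2 fold change was 3.70 for the motile set and 1.18 for the Ift set, beside -0.07 for all genes tested. Levels in quiescent clusters were a median of 7.88% of those in ependymal-like cells for motile members, from 0.204% for Dnah10 to 186% for Dnah17, and 44.3% for Ift members, from 25.6% for Ift140 to 93.8% for Ift122. DESeq2 split all genes tested into 1627 higher and 906 lower, against 2420 and 2267 in edgeR. This fit has 1 residual degree of freedom per gene, and its spread comes from the trend over all genes, so that very small p-values reflect depth.

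**Figure D2:**
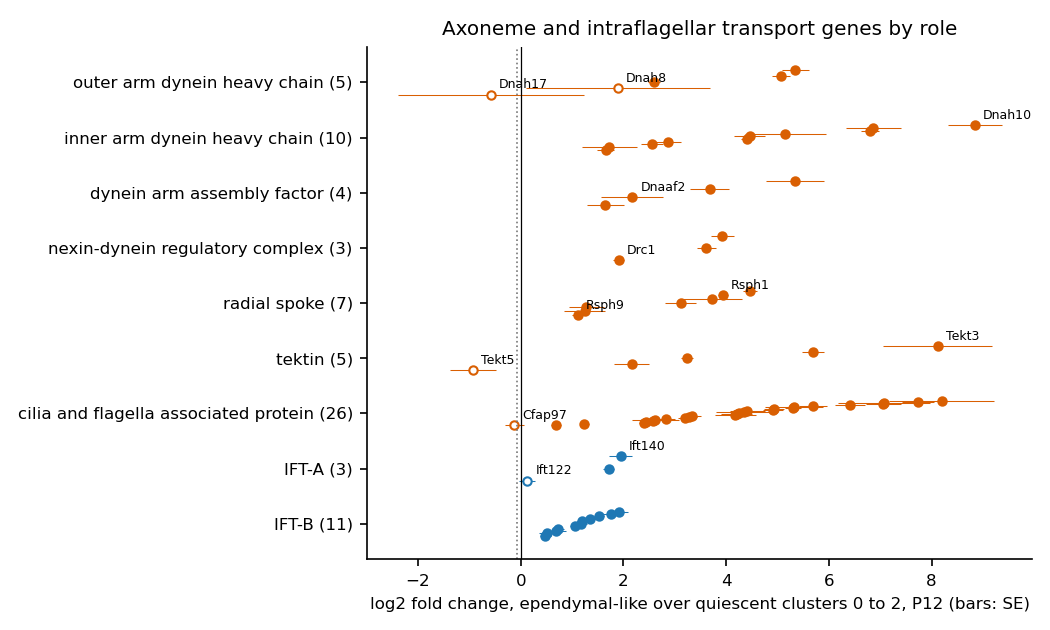
Log2 fold change of the 74 members tested, ependymal-like over quiescent clusters 0 to 2 at P12, by structural role, with standard errors as bars. Filled points passed the threshold, the dotted line marks the median of all genes (-0.07), motile roles are orange and Ift roles blue. The 14 Ift members lie between 0.12 and 1.94, whereas motile members reach 8.84.

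Outer dynein arms drive the beat, and their heavy chains fell into different kinds. Dnah5 had 132 and 254 CPM in ependymal-like cells of replicates 1 and 2, against 22.1 and 41.4 CPM in quiescent clusters (log2 fold change 2.60 ± 0.12 SE, adjusted p = 2.45e-101). Dnah9 had 117 and 196 CPM in ependymal-like cells, against 3.91 and 5.37 CPM in quiescent clusters, and Dnah11 had 69.2 and 102 CPM against 1.44 and 2.81 CPM. For these 3 chains the values of the states did not overlap. The share of all tested genes without overlap was not counted, here or below, so that absence of overlap only describes the members named. Dnah8 and Dnah17, best known from sperm flagella, were barely detected. Dnah8 had 1 and 1 UMI in ependymal-like cells and 9 and 8 UMIs in quiescent clusters, a ratio of CPM of 3.70 with a counting interval of 0.414 to 15.6. Dnah17 had 0 and 1 UMI in ependymal-like cells and 24 and 23 UMIs in quiescent clusters, and neither was called.

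All 10 inner arm heavy chains, which shape the bend of the cilium, were higher in ependymal-like cells. Dnah7a had 82.6 and 79.1 CPM, against 20.7 and 30.0 CPM in quiescent clusters (log2 fold change 1.66 ± 0.16 SE, adjusted p = 1.56e-22). Dnah6 had 165 and 385 CPM in ependymal-like cells, against 8.36 and 17.3 CPM in quiescent clusters (4.41 ± 0.12). Dnah7b had 43.5 and 73.0 CPM in ependymal-like cells and 8.57 and 11.3 CPM in quiescent clusters. The 3 are the inner arm chains with the most UMIs, and none overlapped between states. Dnah7a, Dnah7b and Dnah7c are near-identical copies, among which the authors' counting could divide reads, so their separate values are uncertain. Dnah10 showed the highest fold change of all members, with 44.6 and 47.3 CPM in ependymal-like cells and 4 and 3 UMIs (0.106 and 0.0810 CPM) in quiescent clusters.

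The 4 assembly factors (Dnaaf genes), which fold and preassemble dynein arms in the cytoplasm, were all higher in ependymal-like cells. Dnaaf5 had 19.0 and 14.9 CPM, against 5.51 and 5.16 CPM in quiescent clusters (log2 fold change 1.64 ± 0.36 SE, adjusted p = 3.88e-05). Dnaaf2 had 6.69 and 7.44 CPM in ependymal-like cells, against 1.60 and 1.57 CPM in quiescent clusters (2.17 ± 0.60, adjusted p = 0.00160). Dnaaf3 had 24.5 and 27.1 CPM in ependymal-like cells and 2.37 and 1.76 CPM in quiescent clusters. Dnaaf2 shares exon sequence on the same strand with Gm49383 and Gm49384, and Dnaaf3 with Tnni3, so that their counts may include reads of these genes.

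The nexin-dynein regulatory complex links neighbouring doublets, and its 3 members were all higher in ependymal-like cells. Drc1 had 197 and 308 CPM in ependymal-like cells, against 50.5 and 85.0 CPM in quiescent clusters (log2 fold change 1.90 ± 0.10 SE, adjusted p = 1.06e-75). Drc3 had 116 and 100 CPM in ependymal-like cells and 10.2 and 7.64 CPM in quiescent clusters, and Drc7 had 71.4 and 89.3 CPM against 4.76 and 5.78 CPM. The fold change of Drc7 (3.93 ± 0.22) was thus larger than that of Drc1.

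Radial spokes pass signals from the central pair to the dyneins, and all 7 of their members were higher in ependymal-like cells. Rsph1, of the spoke head, had 752 and 702 CPM, against 48.5 and 46.3 CPM in quiescent clusters (log2 fold change 3.94 ± 0.09 SE). Rsph9, of the same spoke head, differed less, with 218 and 154 CPM in ependymal-like cells, against 98.9 and 72.4 CPM in quiescent clusters (1.11 ± 0.11, adjusted p = 2.41e-24). Rsph3a, of the stalk and a near-identical copy of Rsph3b, had 10.0 and 14.9 CPM in ependymal-like cells and 3.01 and 7.37 CPM in quiescent clusters. Members of a single structure therefore had fold changes from 1.11 to 4.46.

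Tektins form filaments along the doublets. Tekt1 had 231 and 211 CPM in ependymal-like cells, against 26.0 and 21.0 CPM in quiescent clusters (log2 fold change 3.25 ± 0.12 SE), and Tekt2 had 30.1 and 15.6 CPM against 6.998 and 3.32 CPM. Tekt5 was the exception among tektins, with 6.69 and 4.06 CPM in ependymal-like cells and 9.87 and 9.67 CPM in quiescent clusters, a difference that was not called (-0.94 ± 0.45, adjusted p = 0.0968).

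Of 26 Cfap members 25 were higher in ependymal-like cells, among them microtubule inner proteins such as Cfap52, Cfap53 and Cfap161. The 3 most abundant Cfap members were also those closest to equal levels. Cfap20, of the doublet's inner junction, had 235 and 285 CPM, against 170 and 158 CPM in quiescent clusters (log2 fold change 0.68 ± 0.09 SE, adjusted p = 9.46e-12), and Cfap36 had 401 and 378 CPM against 177 and 154 CPM (1.24 ± 0.09). Cfap97 had 34.6 and 37.9 CPM in ependymal-like cells and 38.0 and 41.2 CPM in quiescent clusters and was not called (-0.13 ± 0.19, adjusted p = 0.670).

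Among IFT-A members, Ift122 stood apart from both others. Ift43 had 180 and 166 CPM in ependymal-like cells, against 55.9 and 50.1 CPM in quiescent clusters (log2 fold change 1.71 ± 0.11 SE), and Ift140 had 46.9 and 43.3 CPM against 10.1 and 13.0 CPM (1.94 ± 0.23). Ift122 had 56.9 and 68.3 CPM in ependymal-like cells and 61.0 and 56.4 CPM in quiescent clusters, so that the states overlapped (0.12 ± 0.15, adjusted p = 0.593).

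All 11 IFT-B members were higher in ependymal-like cells, with log2 fold changes from 0.48 to 1.92. The largest was that of Ift88, a core subunit, with 62.5 and 90.6 CPM, against 20.1 and 20.8 CPM in quiescent clusters (1.92 ± 0.17, adjusted p = 2.60e-27). It was followed by Ift172 (1.77 ± 0.20), Ift20 (1.53 ± 0.10) and the small GTPase-like Ift22 (1.36 ± 0.10). Ift46 (1.20 ± 0.11), Ift81 (1.17 ± 0.12) and Ift74 (1.06 ± 0.10), of which Ift74 and Ift81 bind tubulin together, lay in the middle. Ift27, a small GTPase, had 119 and 133 CPM in ependymal-like cells, against 80.4 and 73.9 CPM in quiescent clusters (0.73 ± 0.12). Ift52 (0.68 ± 0.20), Ift80 (0.50 ± 0.14) and Ift57 (0.48 ± 0.11, adjusted p = 1.05e-04) differed least. None of the 11 overlapped between states, with no share of all genes counted beside it.

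Other cilium genes were counted beside the members. All 28 tested motile axoneme genes with other names (of 32, such as Ccdc39 or Dnai1) were higher in ependymal-like cells, with a median log2 fold change of 2.87. So were 10 of 10 regulators of multiciliation (median 5.79), among them Foxj1, which is also an ependymal marker used to name the cluster. IFT subunits with other names (8 of 9 tested higher, median 1.04), IFT motors (9 of 10, 0.90) and transition zone and ciliary membrane genes (13 higher and 1 lower of 18, 1.19) had medians near that of the Ift members. BBSome genes, whose products carry membrane proteins in and out of cilia, had 5 of 9 higher and a median of 0.77. The ependymal markers summed to 3985 and 4357 CPM in ependymal-like cells and 346 and 331 CPM in quiescent clusters, with none at 0 in either state. The qNSC markers summed to 31237 and 30387 CPM in ependymal-like cells and 35858 and 34971 CPM in quiescent clusters, and the part that shared transcripts play in the levels of either state was not tested.

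Promoters of the members were read from RefSeq (GRCm38.p6), where 56 promoters of 49 motile genes and 11 promoters of 11 Ift genes were found, each of 300 bases with 250 before the start. They were searched on both strands for the RFX half-site GTTGCCA, for the X-box consensus, which can contain that half-site, and for the forkhead core TGTTTAC. RFX factors and the forkhead factor Foxj1 are regulators of ciliary genes. The half-site or an X-box was in 28.6% of motile and 27.3% of Ift promoters (16 of 56 and 3 of 11), against 5.36% of all 32851 promoters. The half-site alone was in 19.6% of motile, 18.2% of Ift and 4.38% of all promoters, and the forkhead core in 7.14%, 0% and 3.65%. These are matches of letters, and nothing follows from them on binding. Stretches are shown only where a match was found. Drc1, Tekt1, Dnaaf2 and Cfap20 have the most UMIs in their roles. Dnah5, Dnah7a and Rsph9, first in the other motile roles, gave no match and are not shown. Ift88 and Ift27 were chosen for their match. The stretches run 5′ to 3′ on the gene's strand with the matches in capitals. They lie at chr5:30281341-30281427 (+), chr11:72361851-72361937 (-), chr12:69198393-69198486 (-), chr8:95434918-95435091 (-), chr14:57424051-57424120 (+) and chr15:78174044-78174130 (-).
Drc1: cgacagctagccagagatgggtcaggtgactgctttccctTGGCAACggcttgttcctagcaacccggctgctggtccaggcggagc
Tekt1: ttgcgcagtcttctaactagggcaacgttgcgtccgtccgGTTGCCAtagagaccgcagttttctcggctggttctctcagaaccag
Dnaaf2: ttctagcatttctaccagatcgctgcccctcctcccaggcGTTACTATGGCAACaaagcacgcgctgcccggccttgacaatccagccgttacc
Cfap20: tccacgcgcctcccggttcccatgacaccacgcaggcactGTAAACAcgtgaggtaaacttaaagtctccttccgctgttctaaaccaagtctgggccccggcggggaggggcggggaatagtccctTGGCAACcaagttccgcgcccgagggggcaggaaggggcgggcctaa
Ift88: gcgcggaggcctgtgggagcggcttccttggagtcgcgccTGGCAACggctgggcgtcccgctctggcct
Ift27: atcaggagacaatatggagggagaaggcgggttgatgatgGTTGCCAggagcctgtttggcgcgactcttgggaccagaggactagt
In Drc1, Ift88 and Ift27 the capitals mark the half-site on either strand, in Tekt1 likewise, in Dnaaf2 an X-box that ends in the half-site, and in Cfap20 the forkhead core followed by the half-site. Among these, Tekt1 had a 9.48-fold and Cfap20 a 1.61-fold difference between ependymal-like and quiescent cells.

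The motile members were also counted cell by cell. At P12 an ependymal-like cell thinned to 5000 UMIs held a UMI of a median of 15 of the 57 motile members (28 unthinned, at a median depth of 16069.5 UMIs), and a cell of quiescent clusters 0 to 2 held a median of 2 (4 unthinned, at 11035 UMIs). TAP-like cells had a median of 0 thinned and 2 unthinned (27047 UMIs), and endothelial, mural and microglia-like cells 0 and 1 (11470 UMIs). For the Ift members the medians after thinning were 6 in ependymal-like, 3 in TAP-like and 3 in quiescent cells, against 2 in endothelial, mural and microglia-like cells. With all 60 motile members the thinned medians were 17 in ependymal-like, 1 in TAP-like and 3 in quiescent cells. The count of motile members thus separated ependymal-like cells from the rest more than the count of Ift members did. Thinning left out 58 of 6620 quiescent cells and 2 of 138 ependymal-like cells, which were shallower.

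How many cells were called ependymal-like depended on the cilium genes themselves. With these genes held out the class was 0.814% and 1.76% of the cells of P12 replicates 1 and 2. The study, with its own clustering, reports a larger ependymal share at P12. Whether cells that the study named ependymal lie in the quiescent clusters here was not tested. When the members and the other cilium genes took part in the clustering, the 138 ependymal-like cells of P12 stayed so and 451 further cells joined them, 448 of which otherwise lay in quiescent clusters, 431 of them in cluster 0. These 451 cells had a median of 10 motile members per cell (5 thinned), between the 28 of the ependymal-like cells and the 4 (2 thinned) of the remaining 6172 quiescent cells. Their ependymal markers summed to 797 and 898 CPM, against 305 and 295 CPM in the remaining quiescent cells, and their qNSC markers to 40128 and 37007 CPM against 35457 and 34840 CPM. With this wider class the median log2 fold change over quiescent cells was 2.82 for the motile set and 0.78 for the Ift set. Since the wider class was formed with these genes, its motile counts describe it and are no result.

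**Figure D3:**
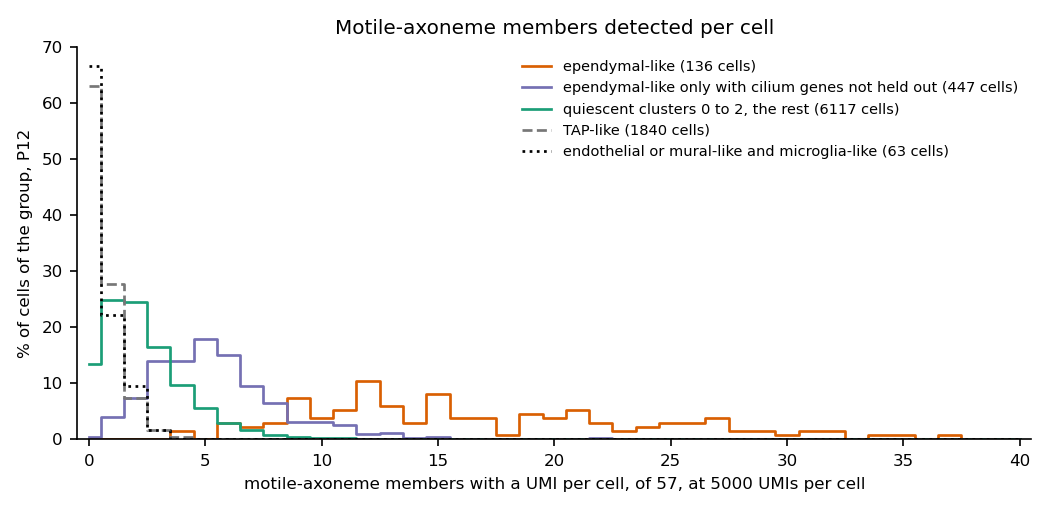
Share of cells (%) by the number of 57 motile members with a UMI, after thinning to 5000 UMIs, at P12. The 451 cells that join the ependymal-like class only when cilium genes take part in the clustering (447 deep enough for thinning) have a median of 5, between 2 for the remaining quiescent cells and 15 for ependymal-like cells.

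Next, aNSC-like cells (432 and 157 cells) and TAP-like cells (1344 and 501) were set against quiescent clusters 0 to 2. In aNSC-like cells 42 of 51 tested motile members were lower and 2 higher, beside 34.4% of 14971 genes called lower and 32.9% called higher. Their median log2 fold change was -2.02 (-2.00 with the 2 genes at 0 UMIs at their bounds), beside -0.06 for all genes. Of 14 Ift members 7 were lower and 1 higher, with a median of -0.30. The motile set therefore had more calls on the low side than the background, and the Ift set lay nearer to it.

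Drc7 had 1 and 0 UMIs in aNSC-like cells, against 179 and 214 UMIs in quiescent clusters, a ratio of CPM of 0.0149 with a counting interval of 0.000378 to 0.0838. Cfap161 and Rsph14 had no UMI in aNSC-like cells, against 36 and 46 UMIs and 43 and 26 UMIs in quiescent clusters, which makes them at least 4.65-fold and 3.91-fold lower when 3 counts over both libraries are taken as the floor. Cfap126 (log2 fold change -5.16 ± 0.37 SE), Rsph4a (-4.68 ± 0.43) and Dnah6 (-4.58 ± 0.40) followed. Cfap44, which tethers inner dyneins, had 1.42 and 2.70 CPM in aNSC-like cells, against 31.1 and 49.8 CPM in quiescent clusters (-4.33 ± 0.23, adjusted p = 2.14e-34). Cfap57, Cfap52 and Cfap70 had 1, 3 and 2 UMIs in all in aNSC-like cells, against 117, 308 and 199 UMIs in quiescent clusters. None of these members overlapped between states.

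The exceptions among motile members were the heavy chain gene Dnah8 and the assembly factor gene Dnaaf2, named here after their values were seen. Dnah8 had 2.48 and 2.02 CPM in aNSC-like cells, against 0.236 and 0.213 CPM in quiescent clusters (log2 fold change 3.30 ± 0.55 SE, adjusted p = 1.02e-07). Dnaaf2 had 13.3 and 8.55 CPM in aNSC-like cells, against 1.57 and 1.54 CPM in quiescent clusters (2.80 ± 0.29, adjusted p = 7.83e-16). In TAP-like cells, compared with those same quiescent cells, Dnah8 had 4.96 and 2.27 CPM, against 0.221 and 0.200 CPM in quiescent clusters (4.03 ± 0.42, adjusted p = 4.47e-04), and Dnaaf2 had 9.76 and 8.92 CPM, against 1.48 and 1.45 CPM (2.67 ± 0.25, adjusted p = 2.70e-04). Dnah8 shares exon sequence with 1700097N02Rik on the opposite strand, and the overlap of Dnaaf2 is given above.

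In TAP-like cells 44 of 54 tested motile members were lower and 2 higher, beside 33.4% of 15464 genes called lower and 32.3% called higher, with a median log2 fold change of -2.42 beside -0.03 for all genes. Drc1 had 2.27 and 2.83 CPM, against 46.7 and 78.7 CPM in quiescent clusters (-4.57 ± 0.18, adjusted p = 1.64e-05). Tekt5, which was not called in ependymal-like cells, had 0.519 and 0.111 CPM in TAP-like cells, against 9.13 and 8.95 CPM in quiescent clusters (-4.72 ± 0.46, adjusted p = 3.26e-04). Cfap221 had no UMI in TAP-like cells, against 13 and 22 UMIs in quiescent clusters, and was at least 7.07-fold lower. Drc7 (-5.01), Cfap44 (-4.61), Cfap126 (-4.40), Cfap52 (-4.30), Cfap99 (-4.26), Dnah9 (-4.23) and Cfap206 (-4.12) completed the largest differences, in each case without overlap between states. Over all 4 libraries the median was -3.04.

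The Ift members had smaller differences, in both directions. Ift80 had 23.1 and 29.2 CPM in aNSC-like cells, against 55.5 and 59.96 CPM in quiescent clusters (log2 fold change -1.16 ± 0.14 SE, adjusted p = 4.92e-13). Ift122 (-0.80 ± 0.13), Ift81 (-0.70 ± 0.13), Ift57 (-0.65 ± 0.12), Ift46 (-0.64 ± 0.12), Ift22 (-0.56 ± 0.12) and Ift20 (-0.41 ± 0.12) were lower too. In TAP-like cells 5 of 14 were lower, namely Ift57 (-0.80 ± 0.13), Ift122 (-0.63 ± 0.14), Ift81 (-0.57 ± 0.13), Ift20 (-0.52 ± 0.12) and Ift22 (-0.51 ± 0.15), with a median of -0.02 over the set, a count close to the 33.4% of all genes called lower. Both comparisons share the quiescent cells. Ift140 was the Ift member higher in aNSC-like cells, with 14.7 and 21.6 CPM, against 9.92 and 12.8 CPM in quiescent clusters (0.65 ± 0.18, adjusted p = 9.65e-04), and in TAP-like cells, with 14.7 and 19.1 CPM against 9.32 and 12.1 CPM (0.66 ± 0.17, adjusted p = 0.0140). The call of Ift140 in aNSC-like cells was lost with DESeq2, without the replicate block and over all 4 libraries, and that in TAP-like cells without the block.

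**Figure D4:**
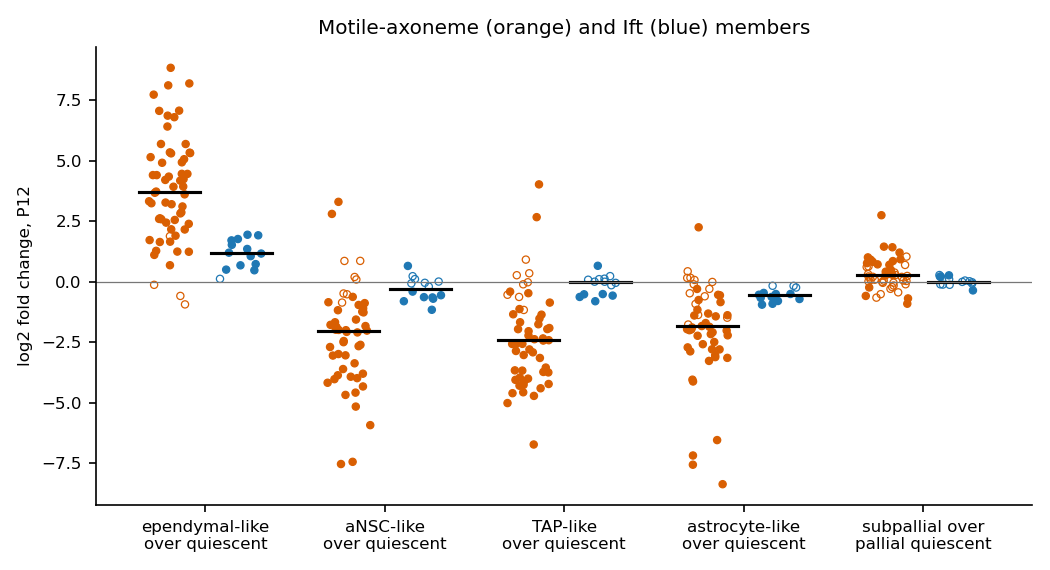
Log2 fold change at P12 of motile (orange) and Ift (blue) members in 5 comparisons, with filled points past the threshold and the median as a bar. The motile median is 3.70 in ependymal-like cells, -2.02, -2.42 and -1.85 in aNSC-, TAP- and astrocyte-like cells and 0.27 in subpallial over pallial clusters. Fitted values of genes with no UMI in 1 state, such as Dnah12 in astrocyte-like cells, are not bounds.

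Astrocyte-like cells (259 and 324), which share many genes with quiescent stem cells, had both sets lower. Of 52 tested motile members 38 were lower and 1 higher, beside 19.2% of 14794 genes called lower and 18.8% called higher, with a median log2 fold change of -1.85 (-1.66 with 4 genes at 0 UMIs at their bounds) beside -0.01 for all genes. Of 14 Ift members 11 were lower and 0 higher, with a median of -0.56. When cells were picked by marker thresholds the motile median was -0.92 and 12 motile members were called lower.

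Dnah12 had no UMI in astrocyte-like cells, against 49 and 89 UMIs in quiescent clusters, and was at least 5.12-fold lower. Cfap161, Rsph14 and Cfap77 likewise had no UMI there, which makes them at least 3.04-fold, 2.56-fold and 1.56-fold lower. Cfap52 and Cfap61 had 2 and 1 UMIs in astrocyte-like cells, against 308 and 144 UMIs in quiescent clusters. Cfap43 had 1.22 and 1.49 CPM in astrocyte-like cells, against 13.6 and 13.3 CPM in quiescent clusters (-3.27 ± 0.30, adjusted p = 2.04e-10). Dnah6 (-3.15 ± 0.30), Cfap45 (-3.12 ± 0.52) and Dnah2 (-3.04 ± 0.42) followed. The single higher member was Dnah8, with 4 and 5 UMIs in astrocyte-like cells and 9 and 8 UMIs in quiescent clusters (2.25 ± 0.77, adjusted p = 0.0206), a call that was lost with DESeq2 and in 4 other alternatives.

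For the Ift members in astrocyte-like cells the largest difference was that of Ift22, with 43.1 and 40.1 CPM, against 90.1 and 72.4 CPM in quiescent clusters (log2 fold change -0.95 ± 0.09 SE, adjusted p = 1.29e-09). Ift80 (-0.91 ± 0.10), Ift122 (-0.79 ± 0.10), Ift57 (-0.71 ± 0.09), Ift46 (-0.67 ± 0.09), Ift74 (-0.63 ± 0.08), Ift88 (-0.59 ± 0.16), Ift27 (-0.54 ± 0.09), Ift43 (-0.51 ± 0.10), Ift81 (-0.50 ± 0.10) and Ift52 (-0.46 ± 0.15) were also lower. None of these overlapped between the states.

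The study sets the pallial against the subpallial lineage, and the quiescent cells of cluster 2 (subpallial, 638 and 723 cells) were compared with those of clusters 0 and 1 (pallial, 3175 and 2084). Of 52 tested motile members 17 were higher and 4 lower in subpallial cells, beside 15.8% of 14380 genes called higher and 15.3% called lower, with a median log2 fold change of 0.27. Of 14 Ift members 3 were higher and 1 lower, with a median of 0.01, so the Ift count is close to the background. The calls rest on the library block and on edgeR: with DESeq2 7 motile members were higher and 0 lower, and without the block 1 was higher.

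Tekt4 showed the largest difference, with 6.62 and 7.16 CPM in subpallial cells, against 0.711 and 1.34 CPM in pallial cells (log2 fold change 2.75 ± 0.27 SE, adjusted p = 8.18e-09). Dnah12 had 2.08 and 4.66 CPM in subpallial cells, against 1.07 and 1.38 CPM in pallial cells (1.45 ± 0.31), and Dnah11 had 3.24 and 4.57 CPM against 0.938 and 1.97 CPM (1.43 ± 0.29). Cfap52 (1.21 ± 0.22), Rsph10b (1.01 ± 0.22), Cfap206 (0.93 ± 0.21) and Cfap126 (0.92 ± 0.14) were higher as well. Tekt1 had 37.7 and 31.1 CPM in subpallial cells, against 22.2 and 16.0 CPM in pallial cells (0.86 ± 0.09, adjusted p = 3.45e-08), and Cfap100 was 0.86 ± 0.14 higher. These members did not overlap between lineages. Rsph10b shares exon sequence with Pms2 and Gm42421 on the same strand.

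The 4 lower members were Dnah14 (-0.91 ± 0.34, adjusted p = 0.0463), Tekt2 (-0.69 ± 0.23), Tekt5 (-0.59 ± 0.16) and Cfap97 (-0.24 ± 0.08, adjusted p = 0.0214). Among them Tekt2 overlapped, with 5.32 and 1.79 CPM in subpallial cells and 7.18 and 3.84 CPM in pallial cells. Ift57 (0.27 ± 0.06), Ift27 (0.22 ± 0.06) and Ift43 (0.21 ± 0.07) were higher and Ift80 was lower, with 44.8 and 49.4 CPM in subpallial cells, against 57.4 and 63.3 CPM in pallial cells (-0.36 ± 0.07, adjusted p = 1.64e-04). Ependymal markers moved with the lineage too: 7 of 13 were higher in subpallial cells, and they summed to 473 and 452 CPM there, against 315 and 279 CPM in pallial cells, with Tmem212 at 0 in subpallial cells of replicate 1. Their part in the motile difference was not tested.

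The ages were compared within states, whose names at P2 and P22 come from label transfer, with CPM that carry no TMM scaling. P2 and P22 have 1 library each, so there is no test, and a member counts as different where the ratio is at least 2-fold and its 95% counting interval excludes 1, among members with at least 20 UMIs over both. The P2 and P22 files share a version of Cell Ranger that differs from that of P12, so age and version cannot be told apart for P12.

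In ependymal-like cells the sum of the 57 motile members was 1.53 times as high at P22 as at P2, with a counting interval of 1.43 to 1.64, and both P12 libraries lay between. Over all 60 members the ratio was 1.37 (1.28 to 1.46). The female animal in the P2 sample means that age and sex cannot be fully told apart here or in the states that follow. Of 37 motile members with enough UMIs 17 were higher at P22 and 1 lower, beside 9.2% of 4857 genes higher and 10.1% lower. Of 13 Ift members 0 passed in either direction, and their sum had a ratio of 0.902 (0.795 to 1.02). These values rest on 12 cells at P22 and 18 at P2. The sum of the ependymal markers moved with age as well, with 4109 CPM at P2, 3985 and 4357 CPM at P12 and 8814 CPM at P22, and its part in the motile difference was not tested.

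Dynein and nexin link genes were among the members with the largest ratios. Dnah5 had 30.6 CPM at P2, 135 and 259 CPM at P12 and 168 CPM at P22 in ependymal-like cells, a ratio of P22 over P2 of 5.51 (2.73 to 11.9). Drc7 had 17.8, 73.4, 91.2 and 110 CPM in the same order, a ratio of 6.19 (2.49 to 17.4), and Dnah11 had 20.4, 71.1, 104 and 110 CPM, a ratio of 5.41 (2.26 to 14.3). For all 3 the P2 library was the lowest. Cfap61 had the highest ratio, 8.21 (2.94 to 28.3), from 18 UMIs at P22 and 5 at P2. Cfap77 (4.56), Cfap44 (4.02), Cfap74 (3.99), Cfap70 (3.99), Dnah12 (3.34) and Drc1 (3.24) were also higher at P22. Cfap36 went the other way, with 701 CPM at P2, 411 and 386 CPM at P12 and 221 CPM at P22, a ratio of 0.315 (0.218 to 0.443). Rsph1 and Tekt1 did not pass, with ratios of 1.05 and 0.818.

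**Figure D5:**
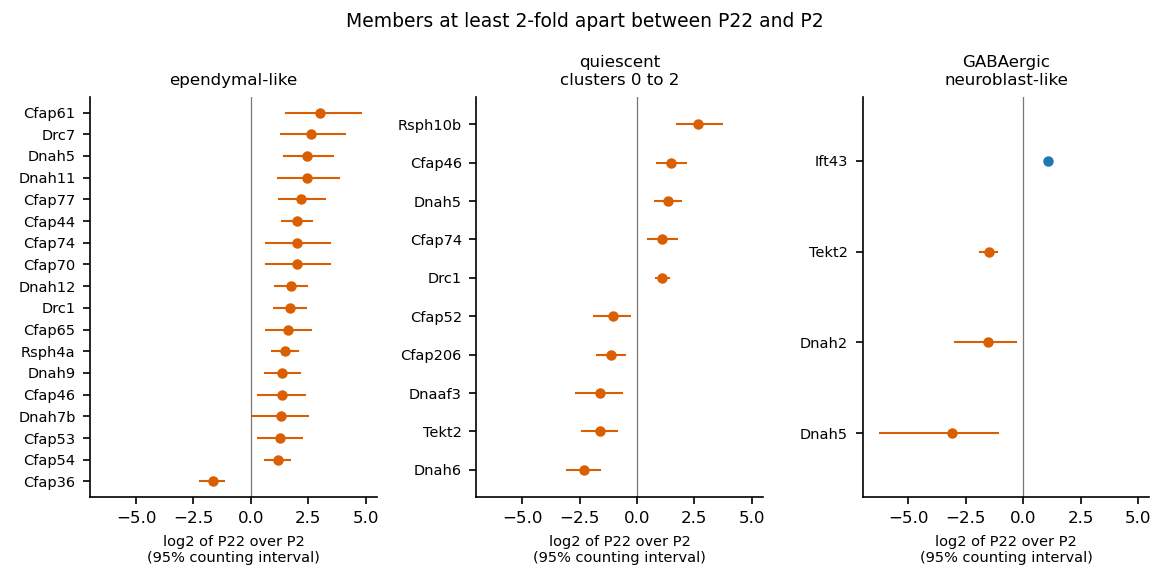
Log2 ratio of P22 over P2, with 95% counting intervals, for the members at least 2-fold apart in ependymal-like cells, in quiescent clusters 0 to 2 and in GABAergic neuroblast-like cells. In ependymal-like cells 17 motile members lie above 0 and Cfap36 below, in quiescent clusters 5 lie on each side, and no Ift member appears in either state.

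In quiescent clusters 0 to 2 equal numbers of motile members passed on each side. Of 42 motile members 5 were higher and 5 lower at P22, beside 8.78% of 12445 genes higher and 7.04% lower, and 0 of 14 Ift members passed. The sum of the 57 members had a ratio of 1.14 (1.08 to 1.19), but that of all 60 had 0.971 (0.936 to 1.01), so its direction turns with the 3 genes left out, and within cluster 2 alone the ratio for the 57 was 1.01 (0.955 to 1.07). Rsph10b had 1.40 CPM at P2, 3.75 and 4.65 CPM at P12 and 8.87 CPM at P22, a ratio of 6.33 (3.34 to 13.0). Cfap46 (2.82), Dnah5 (2.53), Drc1 (2.15) and Cfap74 (2.15) were the others that were higher. Dnah6 had 16.6 CPM at P2, 7.96 and 17.2 CPM at P12 and 3.35 CPM at P22, a ratio of 0.202 (0.120 to 0.324), so that 1 P12 library was above the P2 value. Tekt2 (0.330), Dnaaf3 (0.331), Cfap206 (0.463) and Cfap52 (0.486) were lower too. The mix of the quiescent clusters differed between ages, with 223, 107 and 316 cells of clusters 0, 1 and 2 at P22 and 36, 220 and 256 at P2. Label transfer named each of these cells by its best match, however weak. The study, by contrast, describes pallial quiescent stem cells as virtually missing at its youngest age. Whether the P2 cells named quiescent here are in the same state as those at P22 was not tested. Within cluster 2 alone 3 of 39 motile members were higher and 6 lower, beside 7.87% of 11536 genes higher and 6.48% lower.

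Dnah5 was higher at P22 in ependymal-like cells and in quiescent clusters and lower in GABAergic neuroblast-like cells, with 2 UMIs at P22 and 25 at P2, a ratio of 0.115 (0.0132 to 0.461). In these neuroblast-like cells (1413 at P22 and 1728 at P2) Dnah2 (0.347) and Tekt2 (0.353) were also lower, 0 of 25 motile members were higher, and Ift43 was higher, with 107 CPM at P22 and 50.2 CPM at P2 (2.12, 1.96 to 2.31), beside 4.96% of 13317 genes higher and 10.5% lower. In TAP-like cells Cfap100 (0.436) and Tekt2 (0.214) were the members that passed of 24 motile and 14 Ift, beside 3.11% of 13142 genes higher and 4.1% lower. Tekt2 was thus lower at P22 in quiescent, TAP-like and GABAergic neuroblast-like cells, with 10.2, 6.67, 3.31 and 3.35 CPM in quiescent clusters at P2, P12 replicates 1 and 2 and P22. P12 replicate 2 was as low as P22, and 1 library per age gives no measure of the spread between animals.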

How the data were processed

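Single-cell RNA-seq was analysed from 4 libraries. The authors deposited UMI counts per gene and barcode, made with Cell Ranger (3.1.0 per the labels, 5.0.1 in the file headers of P2 and P22) on mm10, and strand use in counting is not given in the sources used here. Barcodes with more than 2000 and fewer than 8000 genes and under 10% mitochondrial UMIs were kept. Scrublet called 42, 108, 3 and 47 doublets, too few in P12 replicate 2 (0.0653%) for a working caller, and the calls removed no cell. The P12 cells were integrated and clustered in Seurat 5.3.0 (1950 genes, 20 components, resolution 0.5), with 176 genes held out. Members and lists were chosen with earlier results of these data known.

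UMIs were summed per library and state and tested with edgeR 4.0.16 in R 4.3.3 (TMM, low-count filter, library as a block, quasi-likelihood test, Benjamini-Hochberg). The block is the library from which both states came, so the pairing is that of the same cells' library. The scripts were tested on simulated data. CPM are UMIs scaled to the class total, with TMM factors in the tests at P12 only. Ratios and sums have exact 95% Poisson or binomial intervals, which cover counting error only. The floor for a count of 0 is 3 counts over the group. Named members were the 3 with the most UMIs per role, motile members not called higher and all Ift members for ependymal-like cells, and elsewhere up to 10 called members per set by size. Alternatives included DESeq2 1.42.0, other filters, references and cell selections, and leaving out each replicate.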

Additional observations from a re-analysis of the deposited data

Results flagged for a closer look

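Dnah5 differed between states in its change with age, since P22 over P2 was 5.51 in ependymal-like cells and 2.53 in quiescent clusters 0 to 2 but 0.115 in GABAergic neuroblast-like cells. The difference between states was not tested, with 1 library per age, and in neuroblast-like cells the ratio rests on 2 UMIs at P22 and 25 at P2.

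Motile members were also found in barcodes that were left out as cells, which no comparison used. All 60 motile members, Cfap20, Cfap36 and Cfap97 included, summed to 971 CPM at P2, 1210 and 1047 CPM at P12 and 408 CPM at P22 in these barcodes, against 412, 630, 846 and 354 CPM in the cells kept. Among the barcodes left out, 3 at P2 with 8000 or more genes had 3529 CPM and 8 of that kind in P12 replicate 1 had 3339 CPM. Barcodes with at least 10% mitochondrial UMIs had 2411 CPM in 16 barcodes of P12 replicate 1 and 2333 CPM in 55 of replicate 2. Whether these were ependymal cells was not tested.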

How the results depend on the processing

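Among the named members 878 of 1018 alternative values kept their direction and side of the threshold or moved by less than the replicate spread. A further 67 lost and 2 gained a call, 71 values without a test moved, and 0 were counted as reversed. For values without a test a reversal was counted only for called members, so that changes of direction of members not called are missing from this count. With a replicate left out, the spread was that of the left-out values themselves, so that their small moves are largely built in and no check. Without the replicate block ependymal-like cells had 55 motile and 10 Ift members higher (all genes 1502 higher, 864 lower), aNSC-like cells 0 Ift members higher, TAP-like cells 0 Ift members higher, astrocyte-like cells 0 motile members higher, 21 lower and 5 Ift members lower (736 and 582 genes), and subpallial cells 1 motile member higher, 0 lower and 0 Ift members in either direction (108 and 121 genes). With DESeq2 ependymal-like cells had 906 genes lower, aNSC-like cells 0 Ift members higher, astrocyte-like cells 0 motile members higher and 25 lower (1470 and 1489 genes), and subpallial cells 7 motile members higher, 0 lower and 0 Ift members in either direction (871 and 760 genes). Over all libraries aNSC-like cells had 0 Ift members higher, astrocyte-like cells 0 motile members higher (1729 and 1752 genes) and subpallial cells 2 motile members lower (1498 and 1457 genes). With marker thresholds TAP-like cells had 25 motile members lower and 2 Ift members higher, astrocyte-like cells 0 motile members higher, 12 lower and 7 Ift members lower (1586 and 1481 genes), and P22 over P2 was 0.942 for Ift members in quiescent cells and 1.04 for motile members in TAP-like cells. With cluster 0 alone as reference, added after seeing the data, ependymal-like cells had 1 motile member lower and aNSC-like cells 2 Ift members higher. With cilium genes not held out ependymal-like cells had 1367 genes lower and astrocyte-like cells 2 motile members higher. Without a filter on low counts astrocyte-like cells had 0 motile members higher. Unthinned medians per cell were 28 motile and 11 Ift members in ependymal-like, 4 and 6 in quiescent and 2 and 9 in TAP-like cells. The cause of these changes was not tested.

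Leaving out replicate 1 or 2 gave median log2 fold changes of 3.76 and 3.46 for motile members in ependymal-like cells, -2.13 and -2.45 in aNSC-like, -2.49 and -2.28 in TAP-like, -1.76 and -2.22 in astrocyte-like and 0.28 and 0.15 in subpallial cells, as values with no test. Marker thresholds could not be run for ependymal-like cells (18 cells in P12 replicate 1) or subpallial cells (17 in replicate 2), nor all libraries for ependymal-like cells, with 18 and 12 cells at P2 and P22. These small classes limit the depth at P2 and P22.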
